A study of Mus musculus with 8 samples.

Results

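The serpins are the largest family of protease inhibitors in mammals, and their genes were described here in 8 RNA sequencing libraries of mouse lung cells, labelled as pulmonary endothelial cells. The members were all genes of the deposited table whose symbol starts with Serpin, 62 of 21878 genes, grouped by the clade letter that follows. By label there were 4 libraries of each of the treatments Ad-KLK8 and Ad-control. The labels do not say what Ad stands for, and they give no genotype, strain, age, time or dose for either group. KLK8 is a secreted serine protease of the kallikrein family, which the series studied in the context of endotoxemic injury of the lung. The comparison answers which serpin transcripts differed between the groups as labelled.

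Most serpins trap a serine or cysteine protease: the enzyme cuts an exposed loop of the inhibitor, the serpin snaps into a new fold and the enzyme stays bound to it in a distorted, inactive state. Clade B members mostly stay inside the cell and guard it against its own or leukocyte proteases, whereas most members of the other clades are secreted and control clotting, fibrinolysis, complement and inflammation. A few, among them Serpinh1 and Serpinf1, inhibit no protease and act as a chaperone or a signalling protein. In endothelium the secreted members are known for restraining clotting, clot lysis and complement at the vessel wall.

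The libraries held 17785905 to 18702948 gene-assigned reads for Ad-KLK8 and 15771877 to 16761439 for Ad-control, and serpin genes took 0.645% to 0.671% and 0.711% to 0.874% of them. Klk8 itself was 1159, 3263, 1354 and 1276 RPKM (reads per length of the gene, scaled to the reads of the library) in Ad-KLK8 replicates 1 to 4, against 1135, 1403, 1232 and 1422 RPKM in Ad-control, with a log2 difference of 0.31 (two-sided exact permutation p = 0.657) that was −0.04 without Ad-KLK8 replicate 2. The gene in the treatment's name thus did not separate the groups, and every direction below rests on the labels. Of 13 endothelial markers 9 stayed under 0.5 RPKM in every library, among them Pecam1, Cdh5, Tie1 and Cldn5, while all 10 fibroblast and all 8 mesothelial markers were tested, so the labelled cell type was not borne out by its defining markers. Of the other 4 endothelial markers, Esam had 11.8 to 21.6 RPKM and Egfl7 3.65 to 5.15 RPKM over the 8 libraries. Eng had 1.89 to 3.49 RPKM and Kdr 0.287 to 1.65 RPKM. The endothelial sum was 19.2 to 23.1 RPKM in Ad-KLK8 libraries and 29.3 to 32.2 RPKM in Ad-control libraries (4 markers tested, 3 lower, and 2 lower after median-of-ratios scaling). Of all tested genes 52% were lower, and 37.3% after that scaling. Of the epithelial and of the mast cell and platelet markers 2 each were tested, and none passed, although 1 epithelial marker was higher after median-of-ratios scaling. Whether replicates were separate cultures or animals is not stated, and the p-values therefore cover the spread between these libraries alone, which may be technical. Fewer cells of a type and less RNA per cell cannot be told apart in such bulk libraries.

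A gene was tested with limma on log2(RPKM + 1) if its mean over the 8 libraries was at least 0.5 RPKM, which 18 of the 62 serpin genes and 11998 genes in all reached. A gene was called when its p, adjusted after Benjamini and Hochberg over all 11998, was under 0.05. Of the 18 serpins 7 rose, 9 fell and 2 did not pass. That is 88.9% called, read against 77.7% of all tested genes (38.9% higher against 25.7%, and 50% lower against 52%), so the number of calls is near the background. At least 2-fold changes on this scale were found for 1 higher and 3 lower of the 18 serpins (Serping1, and Serpinb2, Serpinb9b and Serpini1), where 2.35% of all tested genes were higher and 9.85% lower by as much, 12.2% in all. The median size of the log2 difference, whatever its sign, was 0.85 for the serpins and 0.39 for all tested genes. The RPKM ranges of the groups did not overlap in 16 of the 18 tested serpins (88.9%), the same 16 that were called. That held for 72.2% of all tested genes (23.1% with Ad-KLK8 higher and 49.1% with Ad-KLK8 lower).

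**Figure D1:**
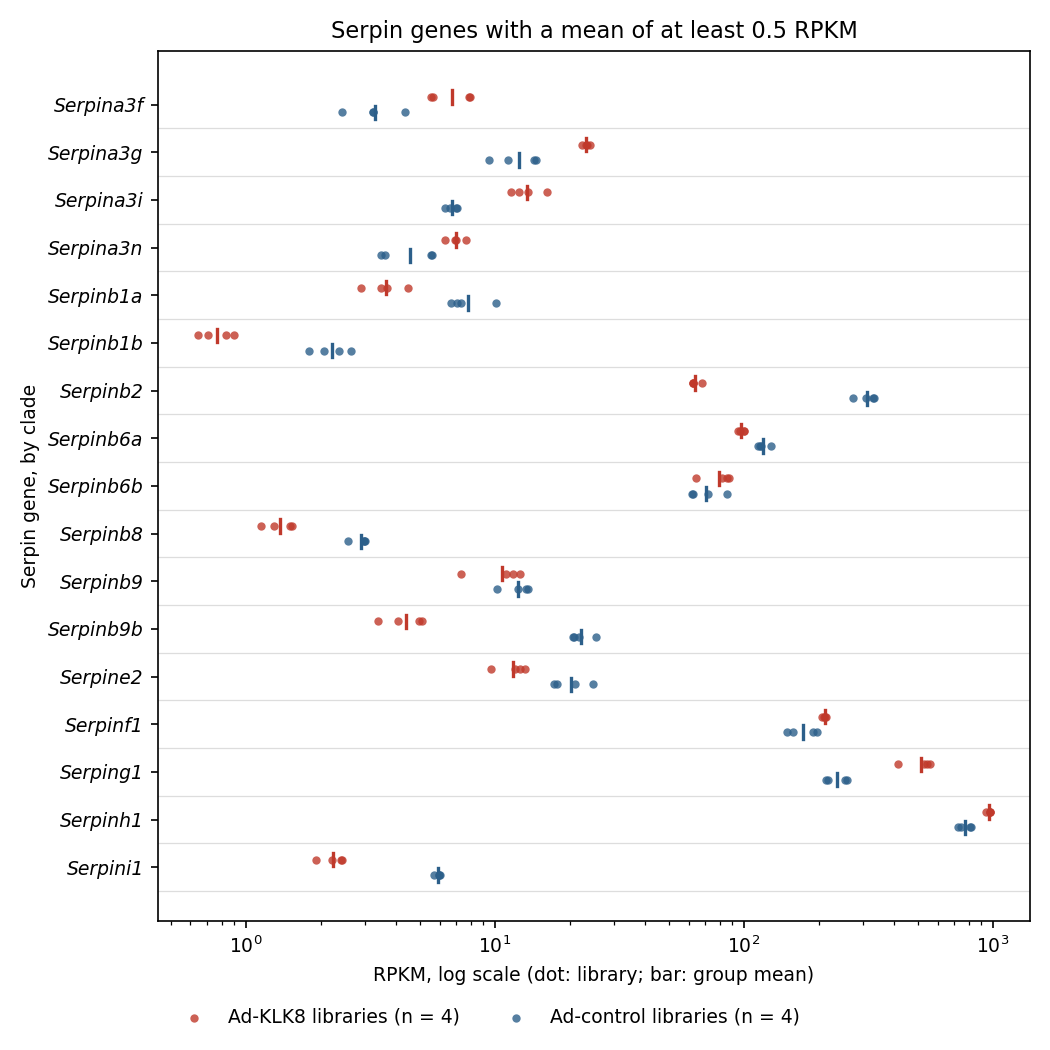
RPKM on a log axis for 17 of the 18 tested serpin genes, ordered by clade, with 1 dot for each library (4 Ad-KLK8 above, 4 Ad-control below) and a bar at each group mean. Levels run from under 1 RPKM for Serpinb1b to 976 RPKM for Serpinh1, and Serpinb6b and Serpinb9 are the 2 genes whose groups overlap.

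Calls are given by clade as counts, without a test of clade against direction. All 4 tested members of clade A rose, as did the single tested members of clades F, G and H. In clade B 6 of 8 tested members fell and 2 did not pass, and Serpine2 of clade E and Serpini1 of clade I also fell. The median log2 difference of all 18 was −0.24, close to the −0.19 of all tested genes. That shift of all genes depended on the scaling. After median-of-ratios scaling between libraries the median was 0.02 for all genes and −0.01 for the serpins, the share of higher genes among all calls moved from 33% to 51.7%, and the serpin counts became 8 higher and 8 lower, where 77.3% of all tested genes were called, 39.9% higher and 37.3% lower. Serpinb6a then did not pass (log2 −0.04), Serpinb6b rose (log2 0.42) and the other 16 serpins kept their call.

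**Figure D2:**
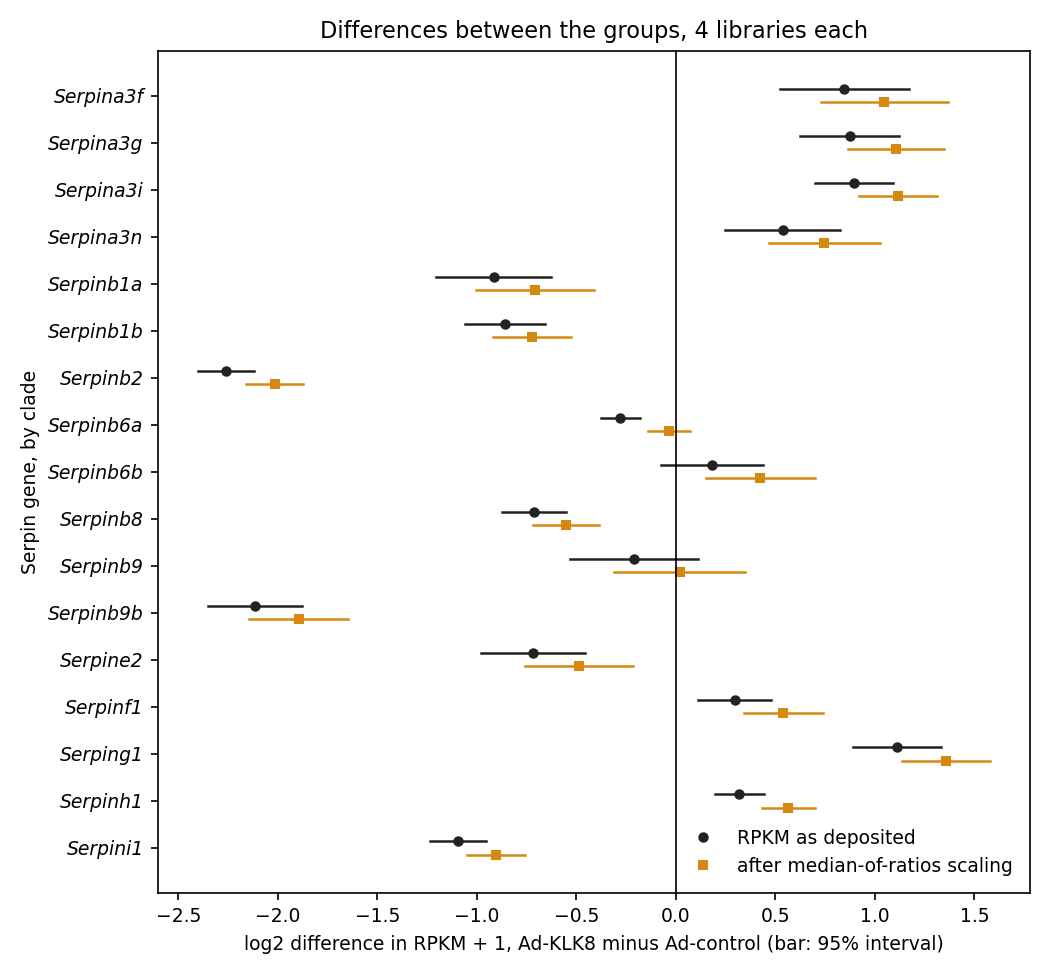
The log2 difference in RPKM + 1, Ad-KLK8 minus Ad-control, for 17 of the 18 tested serpins with their 95% intervals from limma (4 libraries per group), as deposited (circles) and after median-of-ratios scaling (squares). The 4 clade A genes, Serpinf1, Serping1 and Serpinh1 lie right of 0 under both, and the squares sit to the right of the circles throughout.

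Serpin genes lie in runs on the chromosome, and 52 of the 62 stand directly next to another serpin among protein-coding genes (RefSeq order, GRCm38.p6). All 4 clade A genes that rose lie in the run on chromosome 12, which holds 23 serpins. The run on chromosome 13 holds 15, of which 6 were tested, 4 fell and 2 did not pass. Chromosome 1 holds 14, of which 12 stand next to another serpin. Its 3 tested genes all fell, Serpinb2 and Serpinb8 within the run and Serpine2 outside it. Promoter sequence was available from RefSeq (GRCm38.p6) for 15 of the 18 tested members, as the 250 bases before an annotated start. These windows were searched on both strands for TGANTCA (an AP-1 motif), TTCNNNGAA (the GAS motif of STAT factors), GGG and TTTCC set apart by 2 bases (an NF-kB core), TATAAA, GAANNTTC (a heat shock element) and a pair of GAAA set apart by 2 bases (an interferon response motif), where N is any base. Of all 32851 promoter windows in RefSeq 6.75%, 7.02%, 1.41%, 12.4%, 6.69% and 2.98% held them in that order. A match is a description of letters and not evidence of binding.

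The 4 windows of the chromosome 12 genes are shown because these genes rose together and their promoters are related, with motif matches in capitals. Each is written 5′ to 3′ on the gene's strand and ends at the base before the start (for Serpina3f the first of 2 starts).
Serpina3f, chr12:104214294-104214543, + strand: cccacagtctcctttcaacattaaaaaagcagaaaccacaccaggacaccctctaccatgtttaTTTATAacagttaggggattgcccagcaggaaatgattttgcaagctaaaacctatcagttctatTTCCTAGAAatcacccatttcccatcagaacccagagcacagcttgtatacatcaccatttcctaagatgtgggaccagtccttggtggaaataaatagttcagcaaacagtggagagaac
Serpina3g, chr12:104235897-104236146, + strand: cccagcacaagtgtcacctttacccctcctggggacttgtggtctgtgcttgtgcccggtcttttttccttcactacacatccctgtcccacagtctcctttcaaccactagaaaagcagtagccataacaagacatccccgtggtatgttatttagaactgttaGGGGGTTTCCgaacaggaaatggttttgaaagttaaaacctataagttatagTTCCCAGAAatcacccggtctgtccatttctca
Serpina3i, chr12:104262872-104263121, + strand: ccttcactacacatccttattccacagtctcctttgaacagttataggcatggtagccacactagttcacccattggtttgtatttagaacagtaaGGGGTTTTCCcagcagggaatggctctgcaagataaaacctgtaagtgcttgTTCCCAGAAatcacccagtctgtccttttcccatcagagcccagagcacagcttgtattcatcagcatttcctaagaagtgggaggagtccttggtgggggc
Serpina3n, chr12:104406458-104406707, + strand: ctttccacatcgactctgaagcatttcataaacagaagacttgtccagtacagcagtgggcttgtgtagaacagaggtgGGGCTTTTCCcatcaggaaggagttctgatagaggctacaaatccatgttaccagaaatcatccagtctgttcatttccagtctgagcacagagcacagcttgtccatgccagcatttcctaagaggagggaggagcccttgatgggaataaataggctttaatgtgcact

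The TTCNNNGAA motif was present in 3 of these 4 windows, beginning 121, 33 and 102 bases before the start of Serpina3f, Serpina3g and Serpina3i, and each match is followed by the same bases atcaccc. The NF-kB core was present in Serpina3g, Serpina3i and Serpina3n, 85, 154 and 171 bases before the start, and TATAAA on the reverse strand in Serpina3f at 186. The best local alignment of Serpina3f with Serpina3i covered 214 aligned bases at 82.7% identity, and that with Serpina3n 219 bases at 71.2%.

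Further windows are shown for the clade B genes with the 2 largest falls, Serpinb2 (the first of 2 starts) and Serpinb9b, and for Serpinb9, the neighbour of Serpinb9b.
Serpinb2, chr1:107511173-107511422, + strand: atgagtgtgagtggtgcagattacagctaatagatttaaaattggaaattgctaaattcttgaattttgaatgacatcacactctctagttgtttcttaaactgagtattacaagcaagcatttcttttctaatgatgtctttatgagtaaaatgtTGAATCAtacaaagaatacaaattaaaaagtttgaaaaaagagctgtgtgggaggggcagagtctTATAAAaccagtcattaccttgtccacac
Serpinb9, chr13:33004291-33004540, + strand: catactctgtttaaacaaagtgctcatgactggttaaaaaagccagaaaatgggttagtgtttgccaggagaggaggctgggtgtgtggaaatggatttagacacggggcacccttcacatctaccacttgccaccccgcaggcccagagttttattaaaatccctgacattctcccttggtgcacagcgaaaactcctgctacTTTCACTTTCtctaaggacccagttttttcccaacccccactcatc
Serpinb9b, chr13:33027164-33027413, + strand: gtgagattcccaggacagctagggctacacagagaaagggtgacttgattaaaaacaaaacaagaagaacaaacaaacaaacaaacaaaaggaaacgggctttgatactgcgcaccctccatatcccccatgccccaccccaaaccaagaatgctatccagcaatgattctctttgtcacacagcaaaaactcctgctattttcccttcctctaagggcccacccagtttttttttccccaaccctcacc

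Serpinb2 held 1 TGANTCA match that begins 94 bases before the start and TATAAA at 29. The overlapping window of its other start, not shown, also held TTCNNNGAA, at 77 bases before that start. With each start counted, 6 of the 18 windows of the 15 members held TTCNNNGAA and 3 the NF-kB core. Of all RefSeq windows 7.02% and 1.41% held them. Serpinb9 held the interferon response motif on the reverse strand at 46, and Serpinb9b none of the 6 motifs, although 151 bases of the pair aligned at 77.5% identity. None of the windows of the 15 members held GAANNTTC. In Serpinb6a, whose window is not shown, the GAS and interferon response motifs overlapped at 77 and 84 bases before the start.

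Clade A holds the acute-phase serpins of plasma, and in mouse its Serpina3 branch has expanded into many copies that act on leukocyte proteases. Serpina3g (Spi2A), which in mouse inhibits cysteine cathepsins as well, had 23.5, 22.4, 24.1 and 23.3 RPKM in Ad-KLK8 libraries, against 14.7, 11.3, 14.3 and 9.48 RPKM in Ad-control libraries. The groups did not overlap, and Ad-control replicates 1 and 3 lay above replicates 2 and 4. The log2 difference was 0.87 ± 0.11 (SE; limma adjusted p = 3.66e-05), with means of 23.3 ± 0.684 and 12.5 ± 2.49 RPKM (SD, n = 4 each). Serpina3i had 12.5, 16.3, 11.6 and 13.6 RPKM in Ad-KLK8 libraries, against 7.0, 7.08, 6.34 and 6.61 RPKM in Ad-control libraries. It was 2.0-fold higher by the group means (log2 0.89 ± 0.09, limma adjusted p = 4.5e-06). Serpina3f had 5.64, 7.88, 7.96 and 5.55 RPKM in Ad-KLK8 libraries, against 3.25, 2.44, 3.23 and 4.36 RPKM in Ad-control libraries. Its Ad-KLK8 libraries fell into a low and a high pair, both above every Ad-control library (log2 0.85 ± 0.15, limma adjusted p = 0.000327).

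Serpina3n, an acute-phase serpin that in mouse inhibits granzyme B, had 6.95, 6.29, 6.98 and 7.66 RPKM in Ad-KLK8 libraries, against 5.59, 3.50, 5.56 and 3.64 RPKM in Ad-control libraries. Ad-control replicates 1 and 3 again lay above replicates 2 and 4, and the log2 difference was 0.54 ± 0.13 (limma adjusted p = 0.00317). These copies share sequence: 15.9%, 15.4%, 10.6% and 6.90% of the 50-base windows in transcripts of Serpina3g, Serpina3i, Serpina3f and Serpina3n also occur in another gene (GENCODE M21). The sources used here do not tell how such reads were split, so the level of each copy is uncertain. The other 20 clade A genes stayed under the filter, and 8 of them had no read in any library, among them Serpina1a, Serpina1c, Serpina1d and Serpina1e, copies of the liver's alpha-1-antitrypsin gene. Among hepatocyte markers 7 of 8 were under 0.5 RPKM everywhere, including Alb and Ttr. The remaining marker, Trf, had 787 to 949 RPKM in Ad-KLK8 libraries and 303 to 502 RPKM in Ad-control libraries. It was higher in Ad-KLK8 (log2 1.05, limma adjusted p = 6.79e-05).

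Serping1 encodes C1 inhibitor, which blocks the complement proteases C1r and C1s and the kallikrein and factor XII of the contact system. It had 545, 418, 531 and 561 RPKM in Ad-KLK8 libraries, against 261, 214, 254 and 218 RPKM in Ad-control libraries. Every Ad-KLK8 library was above every Ad-control library, and replicate 2 was the lowest of the Ad-KLK8 libraries. The means were 514 ± 65.2 and 237 ± 24.1 RPKM (SD, n = 4 each), 2.17-fold higher, with a log2 difference of 1.11 ± 0.10 (limma adjusted p = 2.23e-06), the largest rise of the tested serpins. Of the 4 complement targets tested here 2 rose and 2 fell. C1s1, one of the mouse C1s genes, averaged 486 ± 12.4 RPKM in Ad-KLK8 libraries and 205 ± 68.9 RPKM in Ad-control libraries (log2 1.31, limma adjusted p = 0.000113). C1ra, a mouse C1r gene, averaged 88.0 ± 1.42 and 52.2 ± 7.63 RPKM in the same order (log2 0.75, limma adjusted p = 1.31e-05). Masp1 and Masp2, proteases of the lectin pathway that C1 inhibitor also blocks, both fell. Both were under 0.5 RPKM in every Ad-KLK8 library and reached the filter only through Ad-control, which favours a fall. Masp2 fell by 0.56 on the log2 scale (limma adjusted p = 0.000758), and Masp1 fell to 0.321 ± 0.0336 RPKM in Ad-KLK8 libraries, against 0.812 ± 0.206 RPKM in Ad-control libraries (limma adjusted p = 0.000673).

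Serpinf1 encodes pigment epithelium-derived factor, a secreted serpin without protease inhibition that restrains angiogenesis. It had 210, 207, 213 and 215 RPKM in Ad-KLK8 libraries, against 149, 197, 157 and 189 RPKM in Ad-control libraries. The Ad-KLK8 libraries lay close together just above the highest Ad-control library, and the Ad-control libraries spread widely. The log2 difference was 0.29 ± 0.08 (limma adjusted p = 0.00751). With the closely similar libraries averaged, as described with the processing, the difference was 0.23 and no longer passed (adjusted p = 0.104). Pnpla2, whose lipase product binds this factor, rose to 20.9 ± 0.526 RPKM in Ad-KLK8 libraries, against 12.3 ± 0.471 RPKM in Ad-control libraries (log2 0.73, limma adjusted p = 7.81e-08).

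Serpinh1 encodes HSP47, a chaperone of the endoplasmic reticulum that holds collagen triple helices together until export. It had 976, 973, 941 and 972 RPKM in Ad-KLK8 libraries, against 727, 809, 743 and 820 RPKM in Ad-control libraries, and the groups did not overlap. The log2 difference was 0.32 ± 0.05 (limma adjusted p = 0.000318), and by the group means it was 1.2-fold higher. It ranked 28 to 32 among all genes by RPKM in Ad-KLK8 libraries and 39 to 42 in Ad-control libraries. Its client Col1a1, a chain of type I collagen, had 1049, 1074, 983 and 1036 RPKM in Ad-KLK8 libraries, against 519, 700, 522 and 689 RPKM in Ad-control libraries (log2 0.78, limma adjusted p = 4.28e-05). The ratio of Serpinh1 to Col1a1 RPKM within a library does not depend on scaling between libraries. It was 0.930, 0.906, 0.957 and 0.939 in Ad-KLK8 libraries, against 1.40, 1.16, 1.42 and 1.19 in Ad-control libraries (log2 difference −0.46; two-sided exact permutation p = 0.0286, the smallest that 70 arrangements allow, and adjusted p = 0.0286 over the 3 ratios tested).

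Among the other 18 tested genes of collagen folding and modification 8 rose, 4 fell and 6 did not pass, with a median log2 difference of 0.01. The counts were 12 higher and 2 lower after median-of-ratios scaling. Of all tested genes 25.7% were higher and 52% lower as deposited, and 39.9% and 37.3% after that scaling. The members that rose with the smallest adjusted p were Crtap, P3h4 and P3h1, which belong to the complexes that modify collagen prolines and lysines, Fkbp14, a proline isomerase, and Pdia3, a disulfide isomerase. Crtap averaged 167 ± 4.45 RPKM in Ad-KLK8 libraries and 81.6 ± 5.44 RPKM in Ad-control libraries (log2 1.03, limma adjusted p = 2.43e-08), and the others rose by 0.39 to 0.78 on the log2 scale. P4ha2, a proline hydroxylase subunit, fell to 43.8 ± 1.71 RPKM, against 78.3 ± 10.1 RPKM in Ad-control libraries (log2 −0.82, limma adjusted p = 3.94e-06). Of 10 tested fibrillar collagen chains 5 rose, 2 fell and 3 did not pass, with a median of 0.24. Col3a1, Col1a2, Col1a1 and Col5a2 rose by 0.47 to 1.19 on the log2 scale, while Col5a1 (−0.26, limma adjusted p = 0.000176) and Col11a1 (−0.43, 0.0023) fell. After median-of-ratios scaling Col5a1 no longer passed (log2 −0.02).

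Most fibroblast and mesothelial markers moved with these rises, where 25.7% of all tested genes were higher and 52% lower. All 10 fibroblast markers were tested, 8 rose and 2 fell, and their summed level was 4136 to 4253 RPKM in Ad-KLK8 libraries and 2181 to 2553 RPKM in Ad-control libraries. Among 8 mesothelial markers there were 6 rises, 1 fall and 1 that did not pass (7 higher and 1 lower after median-of-ratios scaling), and the sum was 671 to 738 RPKM in Ad-KLK8 libraries and 214 to 279 RPKM in Ad-control libraries. The 2 fibroblast markers that fell were Thy1, with a mean of 24.0 RPKM in Ad-KLK8 against 79.8 RPKM in Ad-control, and Vim (305 against 511 RPKM). The mesothelial marker that fell was Krt19 (0.758 against 22.5 RPKM, in the same order). Col1a1, Col1a2 and Col3a1 stand in both the collagen and the fibroblast list. The part of these cell types in the rises of Serpinh1, Serping1, Serpinf1 and the Serpina3 genes was not tested.

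Several serpins restrain plasminogen activation and plasmin. Serpine2, a clade E member, encodes protease nexin-1, an inhibitor of thrombin, plasmin and urokinase at the cell surface. It had 12, 9.64, 13.2 and 12.6 RPKM in Ad-KLK8 libraries, against 17.3, 24.8, 21.0 and 17.8 RPKM in Ad-control libraries (log2 −0.72 ± 0.12, limma adjusted p = 0.000227). It was 1.70-fold lower by the group means, and the groups did not overlap.

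Serpini1 encodes neuroserpin, an inhibitor of tissue plasminogen activator known from neurons. It had 2.41, 1.92, 2.22 and 2.44 RPKM in Ad-KLK8 libraries, against 5.99, 5.99, 5.68 and 6.02 RPKM in Ad-control libraries. It was 2.63-fold lower by the group means (log2 −1.09 ± 0.06, limma adjusted p = 8.17e-08), and the ranges were far apart. Serpinb2, the clade B member known as PAI-2, inhibits urokinase and is induced in inflammation. It had 68.2, 62.5, 62.6 and 62.6 RPKM in Ad-KLK8 libraries, against 309.6, 333, 329 and 273 RPKM in Ad-control libraries. Ad-KLK8 replicate 1 stood a little above the other 3 of its group, which were nearly equal. Serpinb2 was 4.87-fold lower by the group means (log2 −2.26 ± 0.06, limma adjusted p = 1.2e-09), the largest fall of the tested serpins on that scale.

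The activators themselves did not move together. Plau, which encodes urokinase, had 4.76, 5.42, 5.26 and 5.03 RPKM in Ad-KLK8 libraries, against 30.7, 33.1, 31.2 and 33.0 RPKM in Ad-control libraries (log2 −2.43, limma adjusted p = 2.65e-10). Plat, which encodes tissue plasminogen activator, had 18.3, 18.4, 17.2 and 17.9 RPKM in Ad-KLK8 libraries, against 18.6, 20.7, 19.6 and 18.1 RPKM in Ad-control libraries. The groups overlapped and it did not pass (log2 −0.09, limma adjusted p = 0.0962), whereas it rose by 0.14 after median-of-ratios scaling (adjusted p = 0.0262). Plaur, the urokinase receptor, averaged 14.9 ± 0.877 RPKM in Ad-KLK8 libraries and 17.0 ± 1.42 RPKM in Ad-control libraries (log2 −0.18, limma adjusted p = 0.0245, and 0.05 with adjusted p = 0.419 after median-of-ratios scaling).

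**Figure D3:**
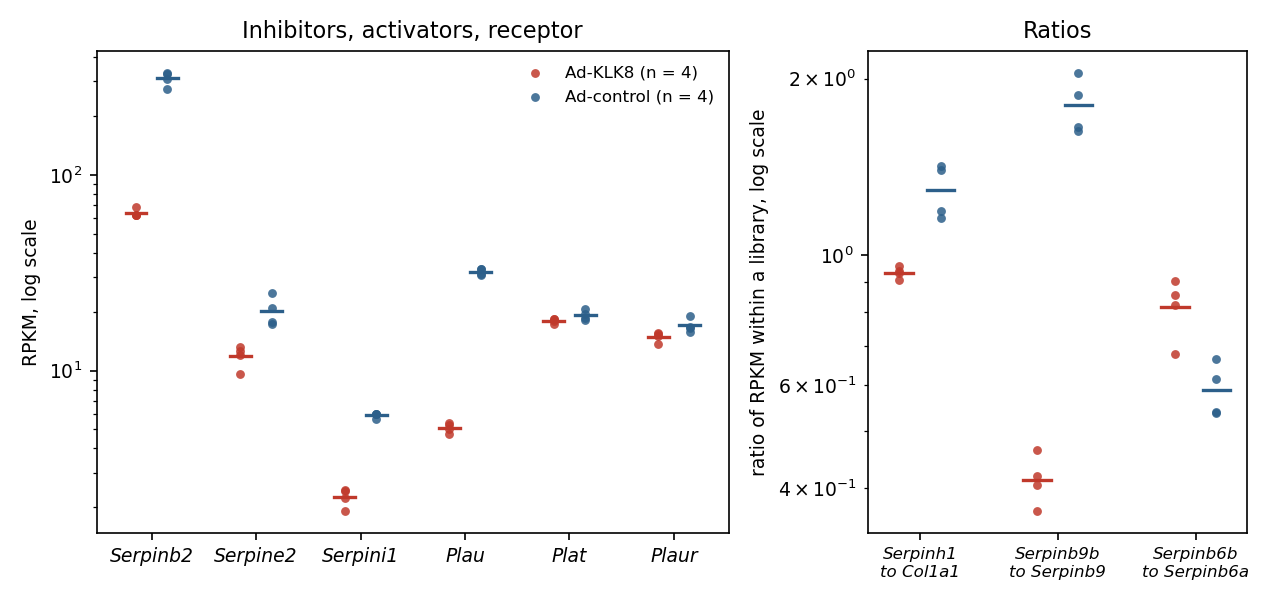
Left, RPKM on a log axis of 3 serpins, both plasminogen activators and the urokinase receptor, with 1 dot per library and a bar at the mean of each group of 4. Right, ratios of RPKM within each library on a log axis: Serpinh1 to Col1a1 and Serpinb9b to Serpinb9 are lower in every Ad-KLK8 library, and Serpinb6b to Serpinb6a is higher (0.678 or more against 0.665 or less).

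The remaining clade B genes fell or did not pass. Serpinb9b, a mouse copy next to Serpinb9, had 5.10, 3.41, 4.97 and 4.07 RPKM in Ad-KLK8 libraries, against 20.6, 25.6, 21.8 and 20.9 RPKM in Ad-control libraries. It was 5.06-fold lower by the group means (log2 −2.11 ± 0.11, limma adjusted p = 3.14e-08). Serpinb9, which protects cells from granzyme B, had 12.6, 7.33, 11.9 and 11.1 RPKM in Ad-KLK8 libraries, against 12.4, 13.6, 13.4 and 10.2 RPKM in Ad-control libraries. The groups overlapped (log2 −0.21 ± 0.14, limma adjusted p = 0.207; 0.02 after median-of-ratios scaling). The ratio of Serpinb9b to Serpinb9 within a library was 0.404, 0.465, 0.419 and 0.366 in Ad-KLK8 libraries, against 1.66, 1.88, 1.63 and 2.05 in Ad-control libraries. Its log2 difference was −2.12 (two-sided exact permutation p = 0.0286, the smallest possible; adjusted p = 0.0286 over 2 ratios chosen after the values were seen). Of their transcripts' 50-base windows 0.499% and 0.378% occur in another gene.

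Serpinb6a and Serpinb6b, copies whose human counterpart inhibits cathepsin G, were the most abundant clade B genes after Serpinb2 in Ad-control libraries. Serpinb6a had 96.3, 95.1, 100.03 and 99.9 RPKM in Ad-KLK8 libraries, against 114.5, 128.5, 116.9 and 116.7 RPKM in Ad-control libraries (log2 −0.28 ± 0.04, limma adjusted p = 0.000169; −0.04 and adjusted p = 0.504 after median-of-ratios scaling). Serpinb6b had 87.1, 64.5, 85.5 and 82.1 RPKM in Ad-KLK8 libraries, against 61.8, 85.4, 62.8 and 71.6 RPKM in Ad-control libraries. The groups overlapped through Ad-KLK8 replicate 2 and Ad-control replicate 2 (log2 0.18 ± 0.12, limma adjusted p = 0.175). Without either library the difference passed, at 0.28 and adjusted p = 0.0242 without Ad-KLK8 replicate 2 and 0.28 and adjusted p = 0.0329 without Ad-control replicate 2. The ratio of Serpinb6b to Serpinb6a was 0.904, 0.678, 0.855 and 0.822 in Ad-KLK8 libraries, against 0.540, 0.665, 0.537 and 0.614 in Ad-control libraries, without overlap but with replicates 2 of both groups nearly equal. Its log2 difference was 0.47 (exact permutation p = 0.0286, likewise chosen after the values were seen; 0.0571 without Ad-KLK8 replicate 1 or without any of the 4 Ad-control libraries).

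Serpinb1a, whose product inhibits neutrophil elastase and cathepsin G, had 3.68, 2.90, 4.50 and 3.48 RPKM in Ad-KLK8 libraries, against 7.02, 10.2, 7.29 and 6.69 RPKM in Ad-control libraries (log2 −0.92 ± 0.13, limma adjusted p = 7.38e-05). Its copy Serpinb1b had 0.835, 0.893, 0.643 and 0.708 RPKM in Ad-KLK8 libraries, against 2.66, 2.07, 2.38 and 1.79 RPKM in Ad-control libraries (log2 −0.86 ± 0.09, limma adjusted p = 7.46e-06). Of their windows 3.12% and 3.09% occur in another gene. Serpinb8, whose human counterpart inhibits furin, had 1.51, 1.15, 1.30 and 1.53 RPKM in Ad-KLK8 libraries, against 3.02, 2.99, 2.57 and 2.99 RPKM in Ad-control libraries (log2 −0.71 ± 0.07, limma adjusted p = 5.77e-06). All 3 were without overlap between the groups. Of 13 leukocyte markers 6 were tested, of which 5 fell and 1 did not pass. These counts became 3 lower and 3 not passed after median-of-ratios scaling. Of all tested genes 52% were lower, and 37.3% after that scaling. The summed level of the 13 markers was 73.9 to 106.9 RPKM in Ad-KLK8 libraries and 118.5 to 259 RPKM in Ad-control libraries. The macrophage gene Lyz2 made up most of it, with 55.1, 86.2, 71.6 and 85.3 RPKM in Ad-KLK8 libraries, against 207, 108.5, 160.5 and 89.4 RPKM in Ad-control libraries. Of the neutrophil markers, S100a8 fell to 0.414 RPKM in Ad-KLK8 libraries, against 1.52 RPKM in Ad-control libraries (limma adjusted p = 5.62e-05). Its Ad-KLK8 mean lay under the filter, which it reached only through Ad-control. S100a9 was not tested and reached 0.617 RPKM at most, and Ly6g was at 0. The lymphocyte markers Cd3e, Ms4a1 and Nkg7 were under 0.5 RPKM everywhere. The part of leukocytes in the falls in clade B was not tested.

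The make-up of the family was summed over 61 serpin genes, which leave out a tested member not reported here. Sum and shares therefore do not describe the whole family. Over all 62 serpin genes the share of reads was lower in Ad-KLK8 libraries (0.645% to 0.671%, against 0.711% to 0.874%). Over the 61 genes the summed level was 1901 to 2080.5 RPKM in Ad-KLK8 libraries and 1723 to 1878 RPKM in Ad-control libraries. Serpinh1 took 46.5% to 51.2% of this sum in Ad-KLK8 libraries and 42% to 46.1% in Ad-control libraries. Serping1 took 22% to 27% in Ad-KLK8 libraries and 11.4% to 15.1% in Ad-control libraries. Serpinb2 took 3.01% to 3.29% in Ad-KLK8 libraries and 15.4% to 18.6% in Ad-control libraries. Serpinb2 thus held a larger share than Serping1 in every Ad-control library, and a smaller one in every Ad-KLK8 library.

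**Figure D4:**
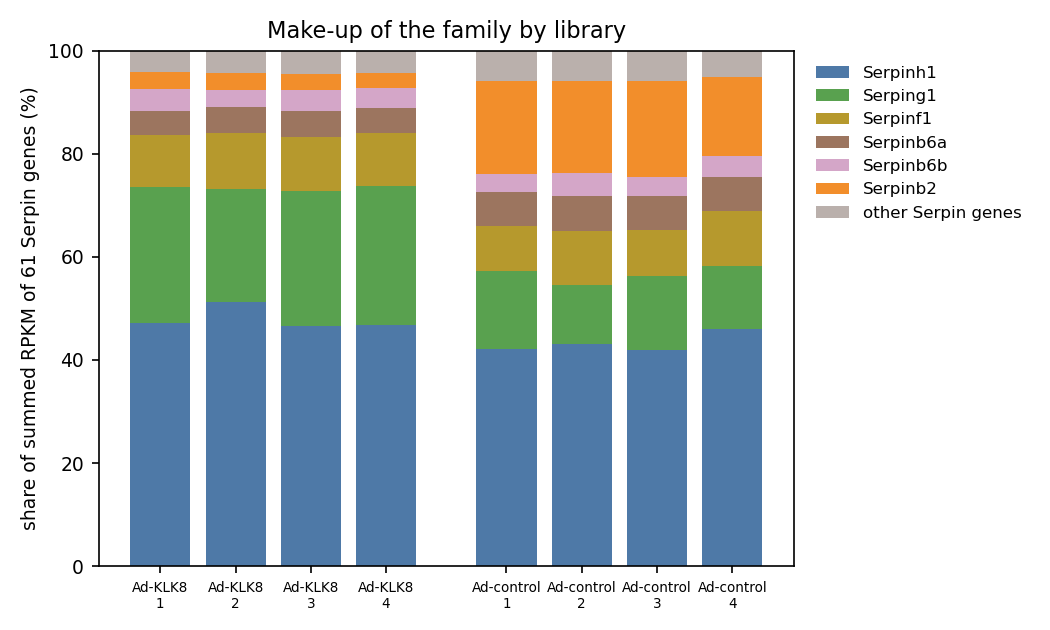
Share of the summed RPKM of 61 serpin genes taken by 6 abundant genes and by the other 55, in percent, for each of the 4 Ad-KLK8 and 4 Ad-control libraries. A tested member not reported here is left out of the sum. The Serpinh1 and Serping1 shares are larger in every Ad-KLK8 library, and the Serpinb2 share in every Ad-control library.

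The other 44 serpin genes stayed under the filter. No read was found for 15 of them in any library, which allows up to 0.16 to 0.19 RPM in a library (3 reads), counting error only. A further 21 had 1 to 10 reads over all libraries. The other 8 had more. A fit without the filter left out the 15 without a read, and of the other low serpins 5 fell and 1 rose. Over all 47 serpins in that fit 8 were higher and 14 lower. Of all 17461 genes in it, low and high, 61.1% were called (42.8% lower, 18.3% higher). Serpind1, which encodes the thrombin inhibitor heparin cofactor II, had 11, 11, 7 and 14 reads in Ad-KLK8 libraries, against 2, 0, 1 and 1 in Ad-control libraries (limma adjusted p without the filter = 0.000142). Serpinc1, which encodes antithrombin, had 1, 3, 2 and 1 reads in Ad-KLK8 libraries, against 7, 5, 5 and 11 in Ad-control libraries (adjusted p = 0.00397 in the same limma fit). Serpinf2, which encodes the plasmin inhibitor alpha-2-antiplasmin, had 1, 1, 1 and 0 reads in Ad-KLK8 libraries, against 9, 4, 12 and 5 in Ad-control libraries (adjusted p = 0.00305 in the same limma fit).

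These thrombin and plasmin inhibitors were thus at the edge of detection in both groups. Serpinb1c, at 0.257 RPKM over all libraries the member nearest below the filter, had 20 reads summed over Ad-KLK8 libraries and 72 over Ad-control libraries (limma adjusted p without the filter = 0.0012). Serpinb10 had 1 and 20 reads and Serpinb6c 1 and 12, in the same order (limma adjusted p without the filter = 0.0086 and 0.0439). Serpina3k had 0, 6, 8 and 29 reads in Ad-KLK8 libraries, against 4, 3, 3 and 3 in Ad-control libraries, and did not pass (limma adjusted p = 0.289). Serpina3c had 9 and 5 reads. Just above the filter, Serpinb1b was the lowest tested member, and no tested member had a group mean under 0.77 RPKM.

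Genes that serpins act on or with were summarised from lists. The counts stand beside 77.7% of all tested genes called, 25.7% higher and 52% lower, and no list was tested against these shares. Of 44 listed serine proteases, 16 were tested, of which 5 rose, 8 fell and 3 did not pass, with a median log2 difference of −0.15. Besides those given above, Prss23, a secreted protease of vascular cells, rose to 117 ± 1.44 RPKM in Ad-KLK8 libraries, against 61.3 ± 3.61 RPKM in Ad-control libraries (log2 0.92, limma adjusted p = 2.28e-08), and Htra3 fell by 0.53 on the log2 scale (limma adjusted p = 0.000498). Of 9 tested cathepsins and caspases 3 rose, 2 fell and 4 did not pass. Cathepsin B (Ctsb) averaged 379 ± 21.0 RPKM in Ad-KLK8 libraries and 277 ± 14.8 RPKM in Ad-control libraries (log2 0.45, limma adjusted p = 2.56e-05), and Ctsz and Casp4 rose by 0.15 and 0.28. Casp8, whose product starts apoptosis downstream of death receptors, fell by 0.75 on the log2 scale (limma adjusted p = 1.34e-06), and Ctss did not pass (−0.56, adjusted p = 0.0608 in the same limma fit).

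Receptors that clear serpin complexes went in both directions. Of 13 tested receptors and cofactors 5 rose, 6 fell and 2 did not pass, with a median of −0.12. Lrp1, the receptor that takes up complexes of serpins such as protease nexin-1 with their proteases, rose to 146 ± 5.89 RPKM in Ad-KLK8 libraries, against 87.1 ± 2.23 RPKM in Ad-control libraries (log2 0.74, limma adjusted p = 5.66e-08). Vldlr and Lrp8, lipoprotein receptors of the same family, fell by 0.76 and 1.0 on the log2 scale (limma adjusted p = 1.33e-05 and 2.18e-07). Procr, the endothelial protein C receptor, fell to 40.9 ± 3.78 RPKM, against 106 ± 15.7 RPKM in Ad-control libraries (log2 −1.34, limma adjusted p = 6.51e-07).

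Protease inhibitors of other families also split. Of 11 tested 5 rose, 5 fell and 1 did not pass, with a median of 0.06. Spint2, a Kunitz inhibitor at the cell surface, rose to 14.2 ± 1.39 RPKM in Ad-KLK8 libraries, against 4.39 ± 0.536 RPKM in Ad-control libraries (log2 1.5, limma adjusted p = 5.72e-08). Cst3, the cathepsin inhibitor cystatin C, rose to 397 ± 10.8 RPKM, against 233 ± 10.7 RPKM in Ad-control libraries (log2 0.77, limma adjusted p = 9.57e-08), and Reck, a membrane inhibitor of metalloproteinases, rose by 0.49. Pi15, Spink2 and Tfpi2 fell by 1.33, 0.70 and 0.41 on the log2 scale (limma adjusted p = 3.99e-06, 0.001 and 0.000296). After median-of-ratios scaling the counts were 7 higher and 4 lower for the serine proteases, 4 and 2 for cathepsins and caspases, 6 and 5 for the receptors and cofactors and 6 and 4 for the other inhibitors. Of all tested genes 39.9% were then higher and 37.3% lower.

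**Figure D5:**
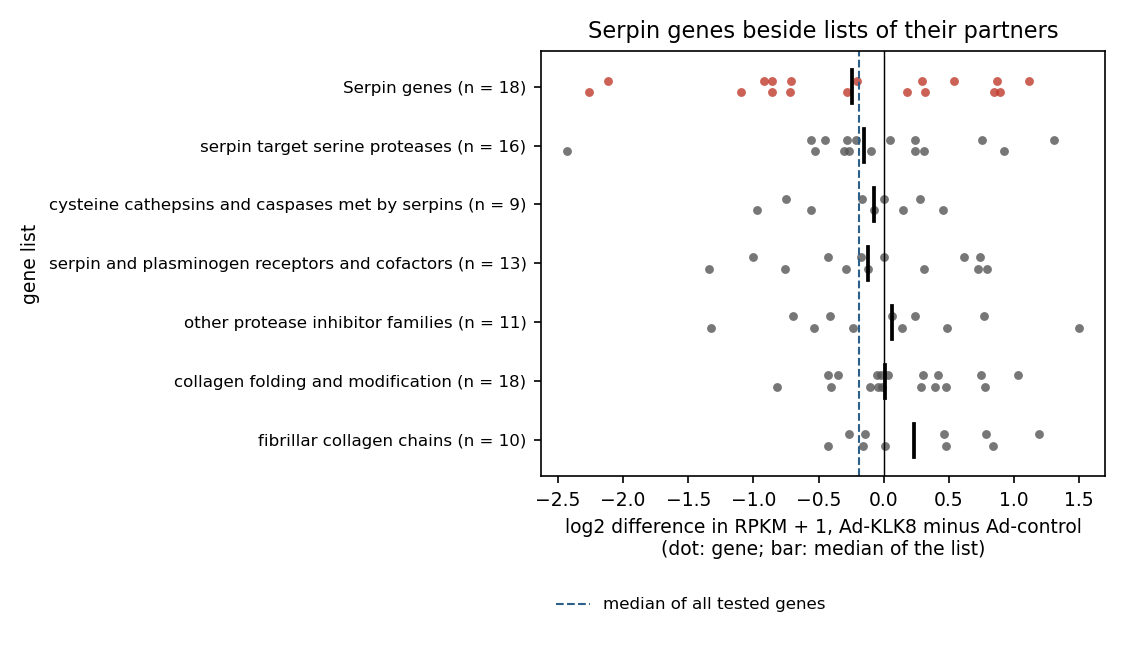
The log2 difference in RPKM + 1, Ad-KLK8 minus Ad-control, of each tested gene (dots) in the serpin family and in 6 lists of partners, with the median of each list (bar) and of all 11998 tested genes (dashed line, −0.19). Serpin dots spread from −2.26 for Serpinb2 to 1.11 for Serping1, and every list has dots on both sides of 0.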

How the data were processed

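RNA was sequenced from 8 mouse samples, 4 labelled Ad-KLK8 and 4 labelled Ad-control, with groups and replicate numbers taken from the labels. TRIzol extraction and a stranded mRNA library kit were used, per the labels' protocols. The values the authors deposited are RPKM, 1 per gene and library, with no record of other scaling. Cufflinks, DESeq, HISAT2, SAMtools and Trimmomatic are named per the submitters' processing notes, with the human build GRCh38, whereas the symbols are those of mouse. The build of the files is therefore uncertain, and coordinates are given only for RefSeq promoter windows. Members, lists and tests were chosen with earlier results of these data known. The rule was to name every tested serpin, up to 6 tested members of each partner list with the smallest adjusted p, and Klk8, Plat, Plau, Plaur, Lrp1 and Col1a1. A few of the genes and ratios so chosen are not reported here, but counts and medians include them.

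Groups were compared on log2(RPKM + 1) with limma 3.58.1 in R 4.3.3 (trend, two-sided, no term but group), which understates the change of low genes. Exact permutation tests over libraries were used for single values and ratios. All 17461 genes with a value above 0 gave whole reads within 0.001 read. A gene with a value in only a single library meets this by construction, so it is no check there. Reads recovered in this way served for depth, for low genes and for a voom fit. Chi-square over degrees of freedom between replicates was 2.12 to 2.63 within Ad-KLK8 1, 3 and 4 and 2.45 for Ad-control 1 and 3, above sampling noise, and 6.32 to 19.6 for the other pairs. All were kept as separate samples, and an alternative averaged the similar ones. Other alternatives were other pseudocounts and filters, TPM, median-of-ratios and upper-quartile scaling, a replicate block and leaving out each library. Floors cover counting error only, and the limma intervals cover the spread between these libraries. Scripts were tested on simulated data, and tables were made with Python 3.11.15 and pandas 2.3.3.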

Additional observations from a re-analysis of the deposited data

Results flagged for a closer look

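In each group of 4 libraries the highest and lowest values of the 18 tested serpins and Klk8 were checked for a gap that takes most of the group's range, and 5 of 38 groups had one, where chance gives about 1 in 20. Serpinb2 in Ad-KLK8 replicate 1 (68.2 RPKM) was the highest of its group and stood apart from 3 nearly equal libraries. Serpinh1 in Ad-KLK8 replicate 3 (940.9 RPKM) was the lowest of its group. Serpinb8 (2.57 RPKM) and Serpini1 (5.68 RPKM) in Ad-control replicate 3 were the lowest of theirs. Klk8 in Ad-KLK8 replicate 2 (3263 RPKM) was far above the other 3 libraries of its group. None of the 4 serpins lost its call without the library named.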

How the results depend on the processing

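Over 19 alternative settings 14 of the 18 tested serpins kept their direction and their side of the threshold in every one. The exceptions were Serpinb6a, Serpinb6b, Serpinb9 and Serpinf1. Without the filter 14 serpins were lower in place of 9, because 47 in place of 18 were tested. Serpinb9, at −0.21 as deposited, was at 0.0179 after median-of-ratios scaling with or without the replicate block and at 0.0162 after upper-quartile scaling, without passing in any. Leaving out each library in turn gave 7 to 8 serpins higher and 9 lower, log2 differences of −0.04 to 0.46 for Klk8 (reversed to −0.0361 without Ad-KLK8 replicate 2), and −0.52 to −0.42 for the ratio of Serpinh1 to Col1a1. Klk8 passed at 0.55 (adjusted p = 0.0446) after median-of-ratios scaling with the replicate block. Same-numbered libraries did not deviate together (r of −0.09, −0.07, 0.01 and −0.05 over tested genes). That cannot tell whether the samples were prepared in pairs, since pairs without a shared deviation would look the same. With the replicate number as a block 7 serpins were higher and 9 lower as before, and that ratio kept its difference of −0.46 with an exact p of 0.125, the smallest that 4 pairs allow. Averaging similar libraries, chosen after seeing the data, gave 6 higher and 9 lower. Depth limits the 44 serpins under the filter, of which 36 had at most 10 reads in all.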
